A study of Homo sapiens with 13 samples.

Results

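The BAF (SWI/SNF) core and ARID subunits described here are 10 genes: the core subunits SMARCB1, SMARCC1, SMARCC2, SMARCD1, SMARCD3 and SMARCE1, the subunits of canonical BAF ARID1A and ARID1B, and the PBAF subunits ARID2 and PBRM1. They are a list of gene symbols, and the rule that picks them uses no measured value, although the list was drawn up with earlier results of these data known. All 10 were found among the 56831 entries of the expression tables. RNA was sequenced from H82 and H146, 2 established cell lines of small cell lung cancer (SCLC) that the labels give as wild type. The groups were untreated H82 (n = 3), H82 treated with FHD-286 (n = 3), untreated H146 (n = 3) and H146 treated with FHD-286 (n = 4). FHD-286, an inhibitor of the ATPases SMARCA2 and SMARCA4, was given at 100 nM for 14 days with renewal every 48 h, and the untreated cells received no agent. The comparison asks whether blocking the motor of the complex goes with a change in the RNA of the subunits that surround it. Each line is 1 cell line grown in culture, and nothing in the labels says that libraries of a group came from separate cultures, so the *p* values measure only the spread between these libraries. In RNA from whole cultures, fewer cells that make a transcript and less of it per cell cannot be told apart.

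BAF complexes slide and evict nucleosomes with the energy of ATP that SMARCA4 or SMARCA2 hydrolyses. The SMARCC proteins pair up as a scaffold, a SMARCD protein, SMARCE1 and SMARCB1 join them into the core, and an ARID subunit then decides the class of complex. ARID1A or ARID1B makes canonical BAF, which is known for its action at enhancers, whereas ARID2 with the bromodomain protein PBRM1 makes PBAF. Subunits with close paralogues are mutually exclusive within a complex, and several are known tumor suppressors, among them SMARCB1, ARID1A and PBRM1.

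Values are TPM, a unit in which read counts are corrected for gene length and every library is brought to the same sum, so levels of different genes can be set side by side. TPM does not hold read numbers, so the depth is unknown and no counting interval could be drawn. A level of at least 1 TPM was seen for 15554 to 16633 genes in treated H82, 21227 to 21772 in untreated H82, 18778 to 19309 in treated H146 and 17476 to 17965 in untreated H146. Mitochondrial genes held 12.3% to 14.9% of TPM in treated H82, 22.1% to 24.1% in untreated H82, 3.82% to 11.4% in treated H146 and 7.56% to 8.86% in untreated H146. The neuroendocrine markers SYP, CHGA, NCAM1 and DLL3 were present in every library, and the 6-gene marker list summed to between 699.6 and 781 TPM in H82 without FHD-286 and between 265.8 and 736 TPM with it. In H146 the sums lay between 1441 and 1751 TPM without the inhibitor and between 1030 and 1289 TPM with it. In H82, SYP averaged 202 TPM without and 46.8 TPM with FHD-286, CHGA 143 and 32.6 TPM, and NEUROD1 230 and 83.6 TPM. The rest of the list had higher means with FHD-286 in H82. NCAM1 averaged 52.9 and 64.2 TPM and DLL3 105 and 132 TPM, both with overlapping libraries, and INSM1 averaged 14.4 and 121 TPM. The mesenchymal markers VIM, COL1A1, COL1A2 and FN1 summed to 15.3 to 16.9 TPM in untreated and 50.4 to 88.4 TPM in treated H82, and to 11.9 to 15.9 and 23.2 to 31.1 TPM in H146. The epithelial markers EPCAM, KRT8 and KRT18 summed to 1294 to 1331 TPM in untreated and 450.2 to 533.5 TPM in treated H146, and to 1.39 to 3.16 TPM in untreated H82. Of the neuroendocrine list, NEUROD1 was near 0 in H146 (at most 0.521 TPM). Blood markers summed to at most 7.25 TPM, with CD3E at 0 in all 6 H82 libraries. Treated H82 replicate 2 stood apart, with 296 TPM of INSM1 against 32.1 and 33.9 in the other treated H82 libraries, and with 63.0 TPM of the epithelial markers summed against 14.0 and 7.90. The part of these marker and library differences in the results was not tested, and results that rest on replicate 2 are given with and without it.

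The members differed widely in level. In untreated H82, SMARCC1 was highest at 126 ± 4.60 TPM (SD, n = 3), followed by SMARCD1 at 80.1 ± 0.439 and ARID1A at 64.9 ± 3.57. PBRM1 at 39.9 ± 3.61, SMARCC2 at 33.5 ± 3.28, SMARCB1 at 20.2 ± 1.74, ARID2 at 19.4 ± 1.22 and ARID1B at 11.5 ± 0.313 came next, and SMARCE1 at 2.85 ± 0.157 and SMARCD3 at 2.55 ± 0.541 were lowest. Only SMARCB1 with ARID2 and SMARCE1 with SMARCD3 overlapped as neighbours in this order. In untreated H146, SMARCC1 (102 ± 18.3 TPM), SMARCC2 (98.5 ± 16.6) and SMARCD1 (72.9 ± 10.8) overlapped at the top, and SMARCD3 (3.90 ± 0.0639) and SMARCE1 (1.62 ± 0.479) were again at the bottom. The untreated lines lay far apart for SMARCC2, ARID1A, ARID2 and PBRM1: SMARCC2 was the higher one in H146, and ARID1A (21.4 ± 5.16 TPM in H146), ARID2 (6.07 ± 1.29) and PBRM1 (13.2 ± 2.57) were higher in H82. These differences between lines are levels set side by side and were not tested.

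**Figure D1:**
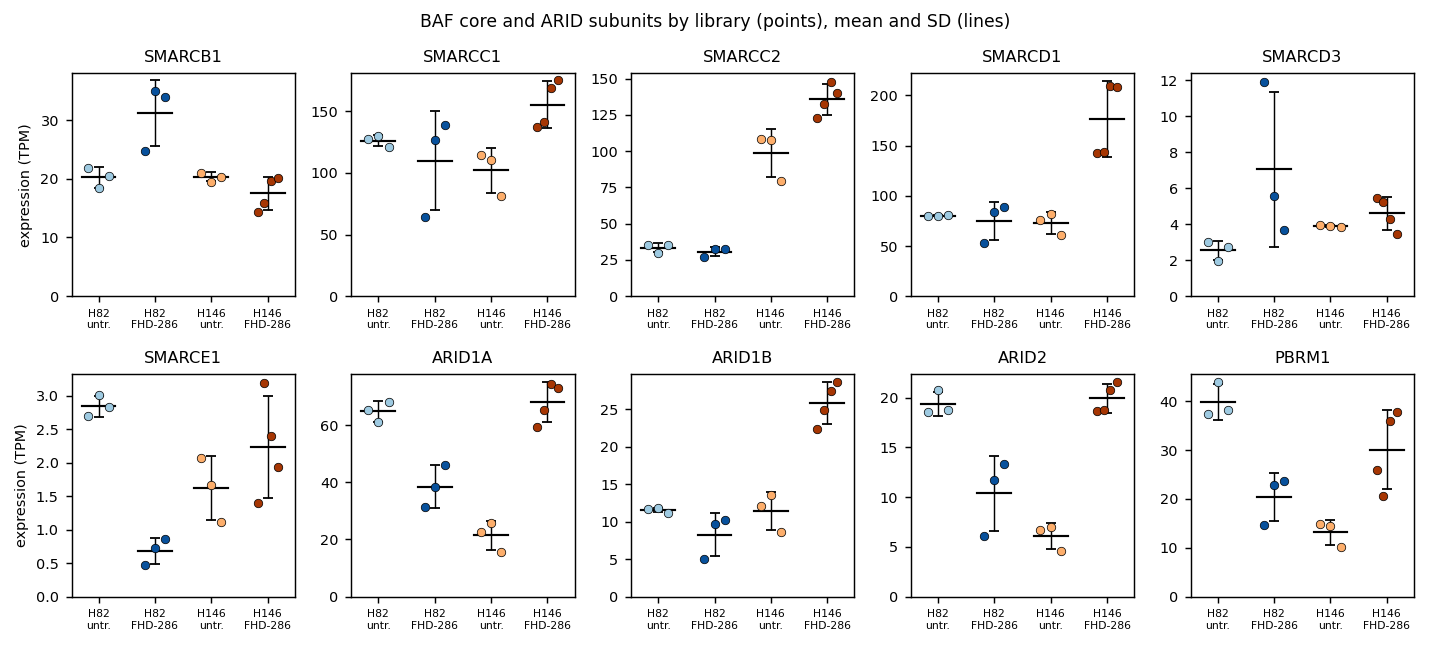
Expression in TPM (vertical axes, starting at 0, a scale of its own for each gene) of the 10 members, with H82 and H146 each shown untreated (untr.) and under FHD-286. Points are libraries, and lines are the mean and SD of 3 libraries, or 4 in treated H146. ARID1A, ARID1B, ARID2 and PBRM1 lie lower with treatment in H82 and higher with treatment in H146, with no overlap in either line. Of all genes tested, 51.4% lay below without overlap in H82 and 35.7% above in H146.

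The overlap of neighbouring genes bears on how far single members can be read, because whether the counting used strand is not given in the sources used here. In the GENCODE release 44 annotation of hg38, 51.5% of the exon bases of the canonical SMARCE1 transcript (chromosome 17, 40624962 to 40648654, minus strand) are shared with another protein-coding entry on the same strand, ENSG00000264058. The low SMARCE1 values are therefore uncertain. The authors counted reads with GENCODE release 28, and whether the overlaps given here exist in that release was not checked. SMARCB1 (chromosome 22, 23786931 to 23838009, plus strand) shares 56.3% of its exon bases with DERL3 on the opposite strand, SMARCD3 (chromosome 7, 151238764 to 151277896, minus strand) shares 31.8% with CHPF2, and SMARCC2 (chromosome 12, 56162359 to 56189567, minus strand) shares 14.1% with MYL6. In H82, DERL3 itself averaged 0.214 TPM without and 0.126 TPM with FHD-286. In H146 it averaged 2.90 and 2.53 TPM. CHPF2 averaged 37.0 TPM without and 20.05 TPM with FHD-286 in H82, the opposite direction to SMARCD3, and 29.6 and 53.0 TPM in H146, the same direction as SMARCD3 there. MYL6 averaged 28.9 and 58.5 TPM in H82 and 130.1 and 89.0 TPM in H146, in both lines the opposite direction to SMARCC2. For SMARCC1 (chromosome 3, 47585269 to 47782106, minus strand), SMARCD1 (chromosome 12, 50085200 to 50100707, plus strand), ARID1A (chromosome 1, 26693236 to 26782104, plus strand) and ARID2 (chromosome 12, 45729706 to 45908040, plus strand) no shared exon base was found. ARID1B (chromosome 6, 156776020 to 157210779, plus strand) and PBRM1 (chromosome 3, 52545352 to 52685917, minus strand) shared 2.24% and 1.83%, on the opposite strand.

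Promoter sequence was read for 3 members that illustrate the contrasting responses below: ARID1A and PBRM1, which fell in H82 and rose in H146, and SMARCB1, which rose in H82. The 250 bases before the RefSeq start (GRCh38.p14) are given 5′ to 3′ on the gene's strand, with matches to CANNTG, the E-box to which basic helix-loop-helix factors bind, in capitals. They are ARID1A, chr1:26695765-26696014 on the plus strand, PBRM1, chr3:52685914-52686163 on the minus strand, and SMARCB1, chr22:23786716-23786965 on the plus strand.
ARID1A: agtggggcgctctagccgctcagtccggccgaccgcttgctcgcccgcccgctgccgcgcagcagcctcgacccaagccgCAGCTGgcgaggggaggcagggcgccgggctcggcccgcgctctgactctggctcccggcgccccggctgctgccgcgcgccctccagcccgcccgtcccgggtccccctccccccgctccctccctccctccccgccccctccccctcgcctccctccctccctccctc
PBRM1: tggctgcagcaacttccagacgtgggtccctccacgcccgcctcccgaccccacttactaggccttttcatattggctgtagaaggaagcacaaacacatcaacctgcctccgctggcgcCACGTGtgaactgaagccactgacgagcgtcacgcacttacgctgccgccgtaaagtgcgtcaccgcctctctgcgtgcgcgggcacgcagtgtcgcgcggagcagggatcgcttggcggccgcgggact
SMARCB1: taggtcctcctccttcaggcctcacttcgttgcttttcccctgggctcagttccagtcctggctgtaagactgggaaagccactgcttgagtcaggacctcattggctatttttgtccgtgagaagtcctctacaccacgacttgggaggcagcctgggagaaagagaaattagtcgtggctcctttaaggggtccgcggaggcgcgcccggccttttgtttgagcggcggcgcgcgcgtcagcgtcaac
The ARID1A and PBRM1 windows hold 1 match each, the one in PBRM1 being CACGTG, and the SMARCB1 window holds none. A further RefSeq window of PBRM1, chr3:52685600-52685849, is not shown and also holds 1 match. This contrast is not general among the members. The windows of SMARCD3, which also rose in H82, hold 0, 1 and 2 matches, and that of SMARCE1, which fell there, holds 0. RefSeq gave 11 windows for 7 of the 10 members, all but SMARCC1, SMARCC2 and ARID2. Of these windows, 6 (from 4 members) held CANNTG, against 61.8% of all 35116 windows. CACGTG, which is also a CANNTG match, was in 1 member window and in 6.34% of all windows, and CCGGAAG, the core of an ETS-type site, was in 0 member windows and 8.52% of all. All motifs were searched on both strands, and a match is a description of the letters only.

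In H146, FHD-286 went with higher RNA of most subunits. At an adjusted *p* under 0.05 in limma, 7 of the 10 members rose, 0 fell and 3 did not pass the threshold; of all 19585 genes tested, 32.5% rose and 15.5% fell. The same 7 had every treated library above every untreated one, a pattern that 35.7% of all genes tested showed. The log2 fold changes below are differences in mean log2(TPM + 1), and the median over the members was 0.86 against 0.25 over all genes tested. At an unadjusted *p* under 0.05 no member was lower, since none of the 3 others reached it.

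The ARID and PBAF subunits all rose in H146. ARID1A, the DNA-binding subunit of canonical BAF, measured 22.7, 25.8 and 15.7 TPM without FHD-286 and 59.5, 65.5, 74.5 and 73.2 TPM with it. The treated mean was 3.18-fold the untreated one, with a log2 fold change of 1.65 ± 0.18 (SE, adjusted *p* = 0.000233). Its paralogue ARID1B went from 12.04, 13.6 and 8.60 TPM to 22.3, 24.9, 27.4 and 28.5 TPM, a smaller rise of 1.13 ± 0.17 (adjusted *p* = 0.0013). ARID2, which takes the ARID position in PBAF, was at 6.66, 6.95 and 4.59 TPM without and 18.6, 18.8, 20.8 and 21.6 TPM with treatment. Its log2 fold change was 1.58 ± 0.16 (adjusted *p* = 0.000197), and the ratio of mean TPM was 3.29. PBRM1, the bromodomain subunit of PBAF, was at 14.8, 14.5 and 10.2 TPM and then at 25.99, 20.7, 36.1 and 37.7 TPM, a rise of 1.11 ± 0.23 (adjusted *p* = 0.00542). In each of these 4 genes untreated replicate 3 was the lowest library, and treated and untreated libraries did not overlap.

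Of the core subunits, SMARCD1 moved most in H146. It was at 75.7, 82.02 and 61.0 TPM in untreated libraries and at 143, 143, 209 and 209 TPM in treated ones (log2 fold change 1.25 ± 0.19, adjusted *p* = 0.00114), with treated replicates 3 and 4 above 1 and 2. The scaffold subunits rose less. SMARCC1 went from 115, 110 and 80.9 TPM to 137, 141, 168 and 175 TPM (0.61 ± 0.16, adjusted *p* = 0.0133), and SMARCC2 from 108, 108 and 79.3 TPM to 123, 133, 148 and 140 TPM (0.47 ± 0.14, adjusted *p* = 0.0245). The calls for these 2 genes depended on untreated replicate 3, the lowest library: without it the adjusted *p* was 0.0505 for SMARCC1 and 0.0809 for SMARCC2. SMARCC2 also missed the threshold without treated replicate 3 (0.0635) or treated replicate 4 (0.0504). SMARCB1, the core subunit that contacts the nucleosome, was at 21.0, 19.5 and 20.4 TPM and then at 14.4, 15.8, 19.7 and 20.2 TPM (-0.21 ± 0.15, adjusted *p* = 0.268), with overlapping groups. SMARCD3 (0.18 ± 0.18, adjusted *p* = 0.438) and SMARCE1 (0.29 ± 0.24, adjusted *p* = 0.341) overlapped too.

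In H82, the members moved in both directions. At the same threshold 4 of the 10 fell, 2 rose and 4 did not pass; of all 19770 genes tested, 45.5% fell and 13.1% rose, so the share of members that fell was near that of genes at large. Treated and untreated libraries did not overlap for 7 members, 5 below and 2 above, whereas 51.4% of all genes tested lay below and 16.4% above. The median log2 fold change was -0.38 over the members and -0.56 over all genes tested. With no filter these medians were -0.38 and -0.26, and under quantile normalization they were -0.10 and 0.0079. In both of these settings the members' median lay below that of all genes, so the order depended on the processing. The filter also kept genes that reached 1 TPM in the untreated libraries alone. SMARCE1, counted among the members that fell, met the expression filter only through the untreated libraries.

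The falls were in SMARCE1, ARID1A, ARID2 and PBRM1. ARID1A measured 65.4, 61.1 and 68.2 TPM without FHD-286 and 31.2, 38.4 and 46.1 TPM with it, a log2 fold change of -0.75 ± 0.17 (SE, adjusted *p* = 0.00789). PBRM1 went from 37.3, 44.0005 and 38.3 TPM to 14.8, 22.9 and 23.6 TPM (-0.96 ± 0.21, adjusted *p* = 0.00647), about 0.512 of the untreated mean. ARID2 went from 18.6, 20.8 and 18.8 TPM to 6.08, 11.7 and 13.3 TPM (-0.90 ± 0.28, adjusted *p* = 0.0263). In all 3 genes treated replicate 1 was the lowest library and no treated library reached an untreated one. SMARCE1, an HMG-box subunit, was at 2.70, 3.01 and 2.83 TPM and then at 0.467, 0.728 and 0.853 TPM (-1.20 ± 0.19, adjusted *p* = 0.00177), with the uncertainty from the shared exons. No treated library reached 1 TPM, so SMARCE1 was tested only because its untreated libraries passed the filter, and its call carries that limit. ARID1B was at 11.7, 11.7 and 11.2 TPM and then at 4.94, 9.61 and 10.2 TPM (-0.49 ± 0.27, adjusted *p* = 0.154), without overlap but not past the threshold.

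SMARCB1 and SMARCD3 rose in H82. SMARCB1 was at 21.9, 18.4 and 20.4 TPM without and 24.7, 34.99 and 33.9 TPM with FHD-286 (0.59 ± 0.18, adjusted *p* = 0.0253). SMARCD3, the SMARCD paralogue best known from heart and neural tissue, was at 2.99, 1.95 and 2.72 TPM and then at 11.9, 5.55 and 3.71 TPM (1.06 ± 0.38, adjusted *p* = 0.0459), with treated replicate 1 far above the others. Neither call held in every fit with 1 library fewer, although the estimates stayed positive. Without treated replicate 2, which stood apart in its markers, SMARCB1 was at 0.50 (adjusted *p* = 0.0835) and SMARCD3 at 1.14 (0.0726), and 4 members fell and 0 rose, against 42.6% and 9.03% of all genes tested. Without treated replicate 3 SMARCB1 was at 0.52 (0.0794), and without treated replicate 1 SMARCD3 was at 0.66 (0.0525). Leaving out any 1 untreated library gave estimates of 0.53 to 0.64 for SMARCB1, 0.93 to 1.15 for SMARCD3 and -0.93 to -0.86 for ARID2, close to those from all libraries, but with adjusted *p* values above 0.05, and it left SMARCE1 below the expression filter. In each of those fits 2 members fell and 0 rose, against 26.2% to 26.9% and 10.2% to 10.3% of all genes tested. The falls of ARID1A and PBRM1 passed whichever library was left out. Treated replicate 1 was the lowest treated library for every member but SMARCD3, where it was the highest. Without it the falls were smaller, at -0.61 for ARID1A, -0.75 for PBRM1 and -0.60 for ARID2, and the members' median was -0.11. In that fit 4 members fell and 1 rose, against 52.2% and 18.4% of all genes tested. SMARCC1 (-0.27 ± 0.29, adjusted *p* = 0.445), SMARCC2 (-0.12 ± 0.15, adjusted *p* = 0.530) and SMARCD1 (-0.12 ± 0.21, adjusted *p* = 0.633) did not pass, with 95% intervals of -0.96 to 0.41, -0.47 to 0.24 and -0.61 to 0.37. For SMARCC1 and SMARCD1 treated replicate 1 (64.0 and 53.3 TPM) lay far below the other 2 treated libraries (127 and 139 TPM for SMARCC1, 83.6 and 88.7 TPM for SMARCD1).

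**Figure D2:**
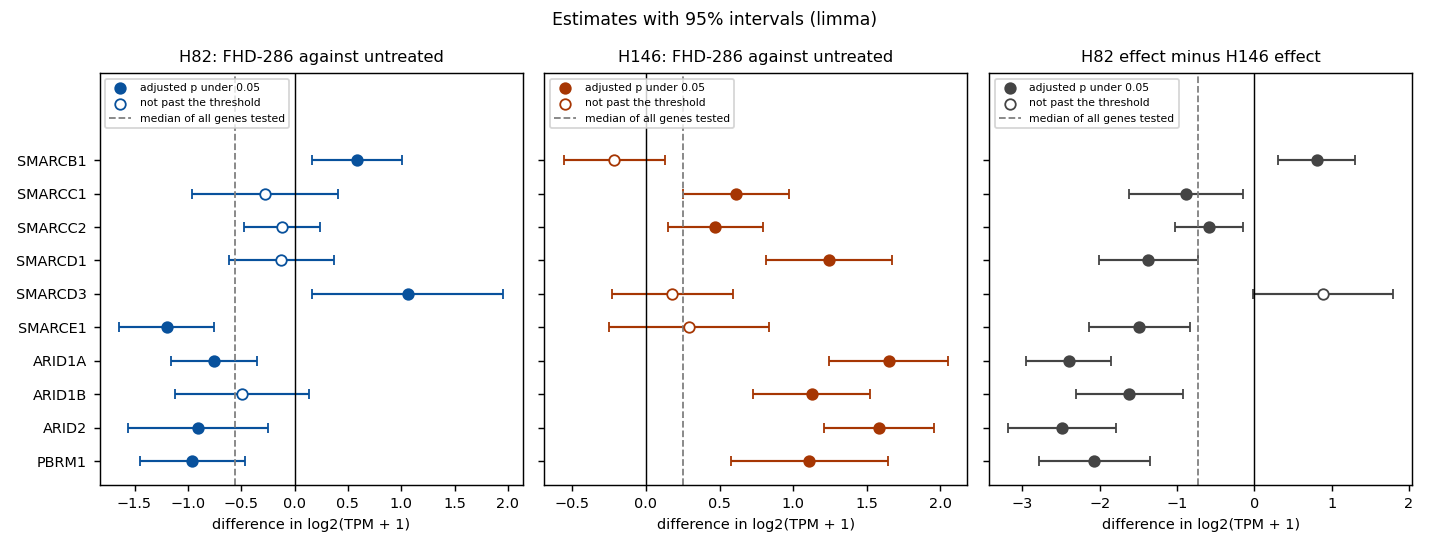
Difference in mean log2(TPM + 1) with its 95% interval (limma) for each member, treated against untreated in H82 (left) and H146 (middle), and the H82 effect minus the H146 effect (right). Filled points have an adjusted p under 0.05, open points do not, and the dashed line is the median of all genes tested, at -0.56, 0.25 and -0.73.

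The responses of the lines were then compared as the interaction of line and treatment, fitted over all 13 libraries. The effect differed between the lines for 9 of the 10 members, 8 of them with the lower effect in H82 and 1, SMARCB1, with the higher; over all 23676 genes tested, 46.5% had the lower effect in H82 and 13.7% the higher, 60.2% in all. The estimates (H82 effect minus H146 effect) were -2.49 ± 0.32 for ARID2 (SE, adjusted *p* = 4.14e-05), -2.40 ± 0.25 for ARID1A (1.01e-05), -2.07 ± 0.33 for PBRM1 (0.000211) and -1.62 ± 0.32 for ARID1B (0.00086). SMARCE1 differed by -1.49 ± 0.30 and SMARCD1 by -1.37 ± 0.29. The scaffold genes had the smallest differences that passed, -0.88 ± 0.34 for SMARCC1 (adjusted *p* = 0.0382) and -0.59 ± 0.20 for SMARCC2 (adjusted *p* = 0.0237). SMARCB1 differed by 0.80 ± 0.23 (adjusted *p* = 0.00871), and SMARCD3 by 0.88 ± 0.42 (adjusted *p* = 0.0847), which did not pass. The call for SMARCC1 was lost without any 1 of 6 libraries (all 3 untreated H82 libraries, untreated H146 replicate 3 and treated H146 replicates 3 and 4), with adjusted *p* values of 0.061 to 0.101. That for SMARCC2 was lost without untreated H82 replicate 1 or 3 or untreated H146 replicate 3 (0.063 to 0.0644), and without treated H82 replicate 3 SMARCD3 passed (0.0152). ARID1A, ARID2 and PBRM1 passed the threshold downwards in H82 and upwards in H146, 3 of 10 members, as did 13.2% of the 15679 genes tested in both lines. In mean TPM these genes ended in treated H146 (68.2, 19.9 and 30.1 TPM) near or below their levels in untreated H82 (64.9, 19.4 and 39.9 TPM).

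Because the calls in each line leaned one way over all genes, the changes were also read against the median gene. In H82 the median of all genes tested was -0.56 with TPM as deposited, -0.14 after scaling by the median of ratios and 0.0079 after quantile normalization; in H146 it was 0.25, -0.024 and 0.060. Of all genes tested in H82, 32.9% fell and 24.2% rose under the median of ratios (1 and 2 of the members) and 24.6% fell and 26.6% rose under quantile normalization (2 and 2). In H146, 25.1% fell and 21.3% rose under the median of ratios (1 and 5 of the members), and 20.8% fell and 23.7% rose under quantile normalization (1 and 7). Relative to the median as deposited, ARID1A, ARID2 and PBRM1 in H82 lay at -0.19, -0.35 and -0.40, and at percentiles 43.3, 38.6 and 37.1 of all genes tested. Under the median of ratios these 3 falls missed the threshold (adjusted *p* = 0.157, 0.175 and 0.0566), and under quantile normalization ARID1A (-0.63, adjusted *p* = 0.00407) and PBRM1 (-0.65, adjusted *p* = 0.0121) fell while ARID2 did not pass (0.194). SMARCE1 passed under the median of ratios (0.0056) but not under quantile normalization (0.776). The H82 rises of SMARCB1 and SMARCD3 grew, to 1.06 (adjusted *p* = 0.00162) and 1.45 (0.0209) under the median of ratios and to 0.95 (0.00151) and 2.03 (0.00331) under quantile normalization. The H146 rises of ARID1A, ARID2, SMARCD1, ARID1B and PBRM1 passed under both scalings, at 1.34, 1.29, 0.93, 0.83 and 0.81 under the median of ratios, and stood at percentiles 87.7 to 96.2 as deposited. Those of SMARCC1 (adjusted *p* = 0.089) and SMARCC2 (0.296) missed the threshold under the median of ratios, whereas SMARCB1 was called lower in H146 under both (-0.52 and -0.44, adjusted *p* = 0.0134 and 0.0309). For the difference between lines, ARID1A, ARID1B, ARID2, PBRM1 and SMARCB1 passed under both scalings with the direction they had as deposited. SMARCC1 (adjusted *p* = 0.838), SMARCC2 (0.288, with the opposite sign) and SMARCD1 (0.0588) missed the threshold under the median of ratios, SMARCC2 (0.285) and SMARCE1 (0.528) missed it under quantile normalization, and SMARCD3 passed under both (0.0118 and 0.000659). Over all genes, 31.1% had the lower effect in H82 and 26.3% the higher under the median of ratios (5 and 2 of the members), and 26.1% and 26% under quantile normalization (6 and 2 of the members).

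**Figure D3:**
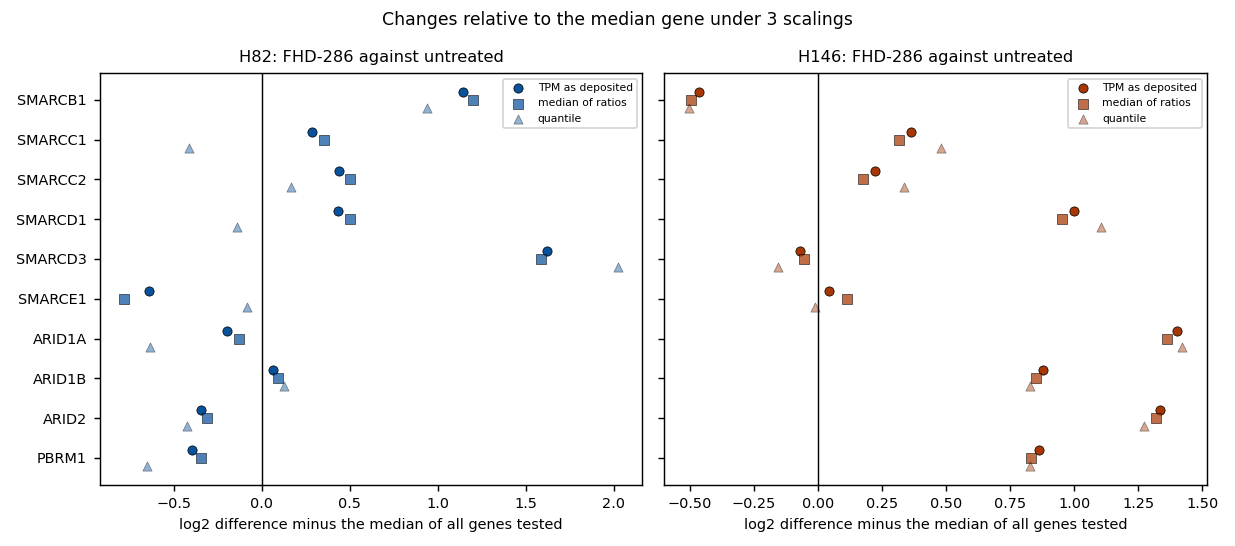
Change of each member with FHD-286 in H82 (left) and H146 (right) after subtracting the median change of all genes tested, for TPM as deposited (circles), the median of ratios (squares) and quantile normalization (triangles). SMARCB1 and SMARCD3 lie above the median gene in H82 under all 3 scalings, and ARID1A, ARID1B, ARID2, PBRM1 and SMARCD1 lie above it in H146 under all 3.

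The other genes of the complex form a list of 21 subunits. In H146, 10 of the 19 that passed the filter rose and 3 fell, against 32.5% and 15.5% of all genes tested. In H82, 2 of 20 rose and 2 fell, against 13.1% and 45.5%. The number that rose in H82 was 8 without treated replicate 1, against 18.4% of all genes tested. It was 0 without any other single library, against 9.03% to 10.3%. SMARCA4, a target of FHD-286, rose in H146 from 99.5, 109 and 89.5 TPM to 158, 157, 174 and 172 TPM (0.73 ± 0.11, adjusted *p* = 0.00122), without overlap. In H82 it was at 80.0, 61.8 and 80.0 TPM and then at 51.0, 93.0 and 106 TPM (0.11 ± 0.28, adjusted *p* = 0.752). SMARCA2, the other ATPase that FHD-286 targets, fell in H146 from 15.2, 14.9 and 11.7 TPM to 7.70, 9.14, 8.16 and 7.63 TPM (-0.70 ± 0.15, adjusted *p* = 0.00597) and did not pass in H82 (-0.24 ± 0.20, adjusted *p* = 0.336). The interaction was -0.62 ± 0.30 for SMARCA4 (adjusted *p* = 0.0955) and 0.46 ± 0.23 for SMARCA2 (adjusted *p* = 0.101), neither past the threshold with TPM as deposited. SMARCA2 passed under the median of ratios (1.16, adjusted *p* = 0.000779), quantile normalization (1.605, 9.91e-05) and library weights (0.59, 0.0106). SMARCA4 passed under quantile normalization (-0.58, adjusted *p* = 0.0321), without mitochondrial genes (-0.76, 0.0417), with library weights (-0.44, 0.0325) and without treated H82 replicate 3 (-0.82, 0.0278), but was at 0.19 (0.576) under the median of ratios. The largest rise and fall past the threshold in H146 were BCL7C (2.05 ± 0.21), a small BCL7-family subunit, and SMARCA2. In H82 they were BCL11A (0.57 ± 0.18), a zinc finger subunit, and PHF10 (-0.98 ± 0.26), a PHD finger subunit of PBAF. Without treated replicate 2 BCL11A was at 0.61 (adjusted *p* = 0.0553) and PHF10 at -1.09 (0.025). BCL11A also missed the threshold without treated replicate 3 (0.49, 0.104) and without any 1 untreated library (0.50 to 0.62, 0.0617 to 0.137), without mitochondrial genes (0.46, 0.0846), with no filter (0.57, 0.0572) and with the replicate block (0.57, 0.0957). PHF10 missed it without untreated replicate 2 (-0.89, 0.0712) or 3 (-1.004, 0.0521), and under the median of ratios (-0.50, 0.11).

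SMARCD2, the SMARCD paralogue outside the 10 members, went the opposite way to SMARCD1 in H146. It fell from 179, 191 and 173 TPM to 116, 119, 125 and 139 TPM (-0.54 ± 0.11, adjusted *p* = 0.00458) without overlap. SMARCD1 thereby went from 28.2% ± 2.22 (SD, n = 3) of the summed TPM of SMARCD1, SMARCD2 and SMARCD3 to 57.2% ± 4.08 (n = 4), and SMARCD2 from 70.3% ± 2.14 to 41.2% ± 3.63. In H82, SMARCD1 took 46.6% ± 2.52 without and 41.1% ± 1.71 with treatment (n = 3 each), and SMARCD3 1.47% ± 0.247 and 4.48% ± 3.93. These shares are within a library and carry no test.

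Ratios between members within a library do not depend on scaling between libraries. For 5 ratios in 2 lines (10 exact two-sided permutation tests), the smallest *p* that the design allows is 0.1 in H82 and 0.0286 in H146. ARID1A to ARID1B had log2 ratios of 0.92, 0.93 and 0.87 in untreated and 1.42, 1.40, 1.44 and 1.36 in treated H146, a change of 0.50 (exact *p* = 0.0286, adjusted over the 10 tests 0.143), and the groups lay far apart against a spread of 0.030 to 0.036 (SD). In H82 the same ratio was 2.49, 2.38 and 2.61 and then 2.66, 2.00 and 2.17 (change -0.22, exact *p* = 0.4), with overlap. ARID1A plus ARID1B to ARID2, canonical BAF against PBAF, changed by -0.20 in H146 (exact *p* = 0.0286, adjusted 0.143) and by 0.25 in H82 (exact *p* = 0.4). PBRM1 to ARID2, both of PBAF, was 1.15, 1.06 and 1.16 in untreated H146 and 0.48, 0.14, 0.80 and 0.81 in treated H146 (change -0.57, exact *p* = 0.0571, adjusted 0.143), with every treated ratio below every untreated one. In H82 the change was -0.013 (exact *p* = 0.9). SMARCD1 to SMARCD3 changed by 1.04 in H146 (exact *p* = 0.0857) and by -1.44 in H82, where treated libraries at 2.17, 3.91 and 4.58 lay below untreated ones at 4.73, 5.37 and 4.89 (exact *p* = 0.1, the smallest possible). SMARCC1 to SMARCC2 changed by 0.14 in H146 (exact *p* = 0.0571) and by -0.16 in H82 (exact *p* = 0.8). The smallest *p* values that the design allows are too large for any of the 10 to pass after adjustment, so the adjusted values decide nothing. Tested over both lines together with labels permuted within each line, PBRM1 to ARID2 had the smallest value (mean change -0.29, exact *p* = 0.0471, adjusted over 5 ratios 0.236), and the others ranged from an exact *p* of 0.354 to 0.979. Without treated H82 replicate 1 the adjusted value for PBRM1 to ARID2 was 0.0143. It passed in no other alternative. The library left out had the highest ratio in H82, 1.28 against 0.97 and 0.83 in the other treated libraries, which is opposite to the direction of the mean change.

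**Figure D4:**
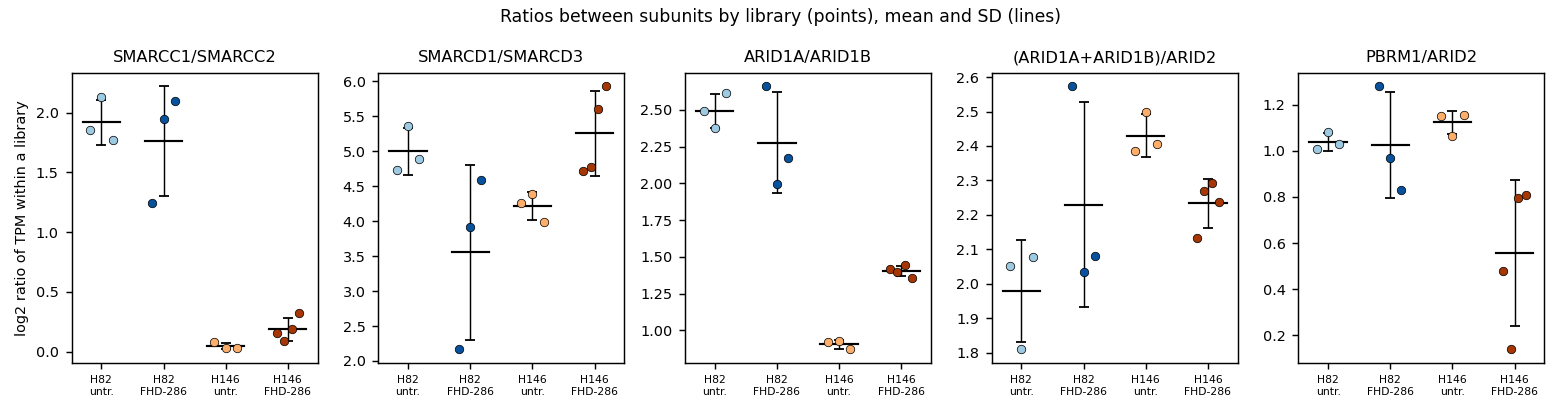
Log2 ratio of TPM between members within each library (vertical axes, each with its own range and not starting at 0) for untreated (untr.) and FHD-286-treated H82 and H146. Points are libraries, and lines are the mean and SD. The ARID1A to ARID1B ratio of treated H146 (1.36 to 1.44) lies above that of untreated H146 (0.87 to 0.93), and PBRM1 to ARID2 of treated H146 (0.14 to 0.81) lies below it.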

How the data were processed

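Reads were trimmed with Trim Galore 0.4.4 per the submitters' processing notes, mapped to hg38 and counted per gene by the authors with STAR and GENCODE release 28. The deposited values are TPM, 1 table per line, and each of the 13 columns sums to 1000000. How gene length was taken is not given in the sources used here, and TPM keeps no depth. The filter kept genes that reached 1 TPM in 3 or more libraries, and log2(TPM + 1) was fitted with limma 3.58.1 in R 4.3.3 (lmFit, eBayes with trend, two-sided, Benjamini-Hochberg over all genes tested, threshold 0.05), in each line and as an interaction over all 13 libraries. A pseudocount of 1 understates changes of low genes. The pipeline was tested on simulated data. Ratios were compared with exact permutation tests that went through every assignment of labels, and the code was checked against scipy 1.17.1 on random numbers. Annotation was GENCODE release 44 and RefSeq promoters. All members were named, and of the 21 other subunits SMARCA4, SMARCA2, SMARCD2 and the largest rise and fall past the threshold in each line. Members, lists and named genes were chosen with earlier results of these data known. Alternatives were a pseudocount of 0.1, no filter, mean TPM above 2, other scalings, no mitochondrial genes, the replicate number as a block, no trend, library weights and each library left out.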

Additional observations from a re-analysis of the deposited data

Results flagged for a closer look

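The response to FHD-286 differed between H82 and H146 for 9 members in the interaction of line and treatment (limma, all 13 libraries), 90% of the members against 60.2% of all 23676 genes tested. The H82 effect minus the H146 effect on the log2 scale was 0.80 for SMARCB1, -0.88 for SMARCC1, -0.59 for SMARCC2, -1.37 for SMARCD1, -1.49 for SMARCE1, -2.40 for ARID1A, -1.62 for ARID1B, -2.49 for ARID2 and -2.07 for PBRM1. The median over all genes tested was -0.73, from which SMARCC1 differed by -0.15 and SMARCC2 by 0.15. In treated H146, the only group of 4 libraries, the members' TPM and the 5 ratios were checked for a library far from the others (15 checks), and 0 were found. The check looks only for a single library at either end. It cannot flag libraries that split into pairs, as for SMARCD1 (143 and 143 against 209 and 209 TPM). The same split, replicates 1 and 2 against 3 and 4 without overlap, was seen in every member but SMARCE1. SMARCB1 was at 14.4 and 15.8 against 19.7 and 20.2 TPM, and in SMARCD3 replicates 1 and 2 were the higher. The ratios PBRM1 to ARID2, SMARCD1 to SMARCD3 and SMARCC1 to SMARCC2 split in this way too, and the other ratios did not. The H146 *p* values take the 4 treated libraries as separate, and whether they form pairs was not tested. The other groups were not checked for a library far from the others.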

How the results depend on the processing

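ARID1A, ARID1B, ARID2, PBRM1 and SMARCD1 passed the threshold upwards in H146 in all 16 alternatives, and ARID1A, ARID1B, ARID2, PBRM1 and SMARCB1 differed between the lines in all 22. The H82 counts depended on the processing, and the cause was not tested. Against 4 members lower and 2 higher in H82, the median of ratios gave 1 lower, quantile normalization 2 lower, no filter 1 higher and leaving out mitochondrial genes 0 higher. Of the other subunits in H82 (2 lower and 2 higher), the median of ratios gave 0 lower and 6 higher, and quantile normalization 6 higher. No filter gave 1 higher, leaving out mitochondrial genes 4 lower and 0 higher, and library weights 7 higher. The shares of all genes moved too, from 45.5% lower and 13.1% higher. They were 32.9% and 24.2% under the median of ratios and 24.6% and 26.6% under quantile normalization. With no filter they were 25.9% and 6.45%, without mitochondrial genes 50.2% and 10.7%, and with library weights 53% and 20.1%. In H146, against 0 members lower, the median of ratios and quantile normalization gave 1 lower, where 25.1% and 20.8% of all genes were lower. Of all genes, 4859 were lower in H82 under quantile normalization, and 4793, 5256 and 3975 were higher under the median of ratios, quantile normalization and library weights. In H146, 4917 and 4806 were lower under the median of ratios and library weights, and 4167 were higher under the median of ratios. Directions turned for genes without a call in H82: SMARCC1 (0.21 under the median of ratios, 0.042 with library weights), SMARCC2 (0.36 and, under quantile normalization, 0.17), SMARCD1 (0.36, and 0.076 with library weights), ARID1B (0.14, quantile), SMARCA2 (0.17, and 0.66 under quantile normalization, where it passed with an adjusted p of 0.0356), and, without mitochondrial genes, SMARCA4 (-0.040) and SMARCD2 (-0.030). They also turned for SMARCD3 in H146 (-0.079 and -0.093) and, in the difference between lines under the median of ratios, for SMARCA4 (0.19) and for SMARCC2 (0.21, adjusted p = 0.288), which had been called at -0.59.

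Leaving out 1 library at a time gave 2 to 4 members lower in H82, against 26.2% to 52.2% of all genes tested in these fits. It gave 0 to 1 higher there, against 9.03% to 18.4%. In H146 it gave 5 to 7 higher, against 22.6% to 39.3%. Between lines 7 to 10 differed, against 51.1% to 62.9%. Of the other subunits, leaving out 1 library gave 1 to 3 lower and 0 to 8 higher in H82. In H146 it gave 2 to 3 lower, against 9.58% to 19.6% of all genes tested. Of all genes it gave 4291 to 9957 lower and 1676 to 3503 higher in H82, and 1812 to 3729 lower and 4287 to 7480 higher in H146. The range was -0.48 to 0.073 for SMARCC1, -0.26 to 0.10 for SMARCD1, -0.091 to 0.43 for SMARCA4 and -0.031 to 0.39 for SMARCD2 in H82. For the log2 ratios it was -0.32 to 0.10 for SMARCC1 to SMARCC2 and -0.14 to 0.086 for PBRM1 to ARID2 in H82, and over both lines -0.092 to 0.12 for SMARCC1 to SMARCC2, -0.46 to 0.15 for SMARCD1 to SMARCD3, -0.060 to 0.075 for ARID1A plus ARID1B to ARID2 and -0.35 to -0.22 for PBRM1 to ARID2.

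No sign was found that the replicate numbers pair the samples. Same-numbered deviations correlated at -0.038 to 0.027 in H82 and -0.11 to 0.011 in H146, and not every sample correlated best with its own number. The sample titles do not say whether same-numbered libraries were prepared together, and these correlations cannot decide it. With the number as a replicate block, 4 members were lower and 1 higher in H82 (other subunits 0 higher), against 43.6% and 11.8% of all genes, 5 were higher in H146, against 24.2%, and 7 differed between lines, against 55%. Depth is unknown from TPM, so the precision of low members such as SMARCE1 and SMARCD3 rests on the spread between libraries alone.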
